A study of Homo sapiens with 15 samples.

Results

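The Notch genes described here are the 4 receptors NOTCH1 to NOTCH4, the ligands JAG1, JAG2, DLL1 and DLL4, and the target genes HES1 and HEY1. They were chosen by name as a pathway, with earlier results of these data known. All 10 were measured, by 23 of the 31332 array probes that carry 1 gene symbol, and 18334 genes were measured in all. The cells were K562, an established human line grown from a chronic myeloid leukaemia in blast crisis, which can be pushed towards erythroid or megakaryocytic features. They received 1 mM valproic acid, a drug against epilepsy that inhibits histone deacetylases, or no agent, and RNA was taken after 2, 6, 10, 48 or 72 h. RNA of treated and of untreated cells from the same time was hybridised together on 2-colour arrays, 3 at each time and 15 in all. Each replicate came from its own thawing of the line, and the dyes were exchanged in replicate 3. All groups therefore share 1 leukaemic line, and the results speak for no other cell.

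Notch signalling runs between touching cells. A ligand of the Jagged or Delta type on one cell pulls on a Notch receptor of its neighbour, a metalloprotease and then the gamma-secretase complex cut the receptor, and the released intracellular domain enters the nucleus. There it joins the DNA-binding protein RBPJ and a Mastermind coactivator and switches on genes such as HES1 and HEY1, whose proteins are themselves repressors. Without the intracellular domain, RBPJ holds corepressors and histone deacetylases at the same genes. In blood formation the pathway is best known for committing progenitors to the T cell lineage.

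The promoter of HES1 is the classical example of a Notch-responsive sequence and is shown for that reason. The 250 bases before its annotated start, chr3:194135898-194136147 on the plus strand (GRCh38.p14, RefSeq), are printed 5′ to 3′, with capitals marking the RBPJ core TGGGAA.
HES1: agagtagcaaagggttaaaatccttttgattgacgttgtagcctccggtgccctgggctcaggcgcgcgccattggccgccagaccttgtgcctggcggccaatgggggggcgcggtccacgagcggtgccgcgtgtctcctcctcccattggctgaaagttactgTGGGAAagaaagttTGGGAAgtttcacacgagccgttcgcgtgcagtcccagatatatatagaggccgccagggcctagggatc
NOTCH2: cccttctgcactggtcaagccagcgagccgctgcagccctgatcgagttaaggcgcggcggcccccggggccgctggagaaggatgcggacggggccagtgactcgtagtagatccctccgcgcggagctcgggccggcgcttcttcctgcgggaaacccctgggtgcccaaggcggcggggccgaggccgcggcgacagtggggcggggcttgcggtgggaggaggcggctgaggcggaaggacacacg
The NOTCH2 sequence, chr1:120069663-120069912 on the minus strand, is set beside it because NOTCH2 had the largest ratios of the 10 genes. The core was searched on both strands. HES1 holds it 2 times, both in the orientation of the gene, beginning 84 and 70 bases before the start. It also holds 3 matches to the N box CACNAG, bound by HES proteins, none of which overlaps a core. NOTCH2 holds 0 matches to either. Of 35116 annotated starts, 20.8% hold 1 or more cores in such a window and 2.9% hold 2 or more; for the N box the shares are 32% and 6.32%. Of the 10 genes, 8 had a window in the table used here, and HES1 was the only one of these 8 with a core; N boxes were also found in the windows of NOTCH3 and NOTCH4, 1 in each. These are matches of letters, not measured binding.

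Ratios are given as log2 of treated over untreated RNA, so that 1 is a doubling, with the value of replicates 1, 2 and 3 in that order. Base 2 is assumed, since the sources used here name no base. Estimates after these values come from limma with a dye term, and their errors are standard errors; n was 3 arrays at each time. Adjusted p is limma's, after Benjamini-Hochberg adjustment over all genes, and a gene is said to have risen or fallen where it was under 0.05. The share of all genes that passed was 6.35% at 2 h, 28.7% at 6 h, 29.7% at 10 h, 37.9% at 48 h and 35.8% at 72 h. Against these shares, 1 of the 10 Notch genes passed at 2 h, 5 at 6 h, 5 at 10 h, 5 at 48 h and 7 at 72 h. At 2 h the 1 Notch gene that passed was higher, where 4.82% of all genes rose and 1.53% fell. At 6 h 5 were higher, where 19% rose and 9.66% fell. At 10 h 5 were higher, where 18.1% rose and 11.6% fell. At 48 h 4 were higher and 1 was lower, where 23.3% rose and 14.6% fell. At 72 h 5 were higher and 2 lower, where 22.1% rose and 13.6% fell. The receptors and ligands that rose early were thus counted at times when many genes rose. Since the genes were chosen with earlier results of these data known, the counts are descriptions and no test of the pathway. The median ratio of the 10 genes was 0.084, 0.16, 0.13, 0.034 and 0.12 at the 5 times, beside 0.0046, 0.0090, 0.011, 0.0056 and 0.013 over all genes. Only ratios were used, so it cannot be said how strongly any of these genes was expressed, the line's defining markers could not be checked by level, and fewer cells of a kind cannot be told apart from less RNA per cell. Across genes no array stood against its label. Replicate 3 correlated least with replicates 1 and 2 at 2 h, with r = 0.535 across genes and −0.0895 across all probes. At 48 h these were 0.827 and 0.574. Neither genes nor probes are independent replicates.

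**Figure D1:**
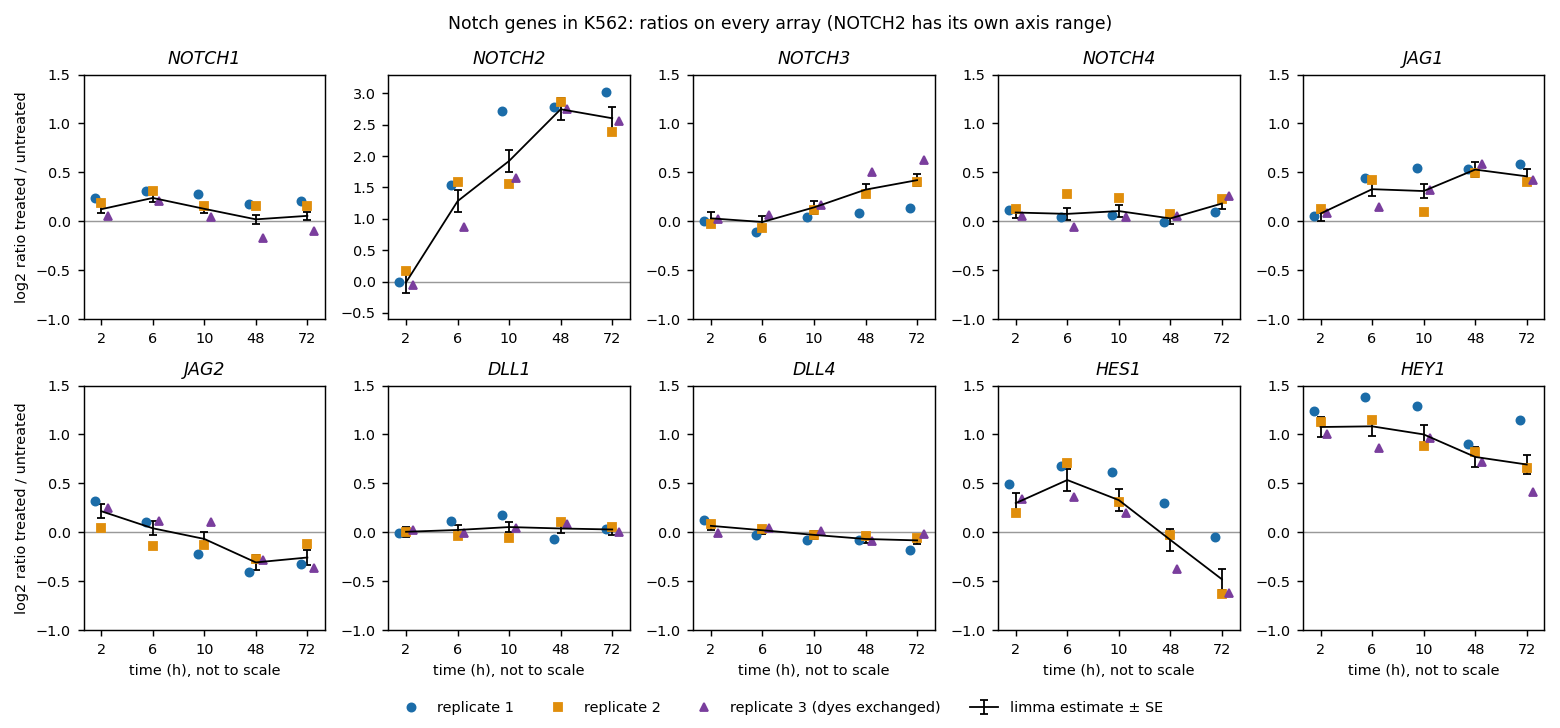
Log2 ratio of treated over untreated RNA (vertical axis) for the 10 Notch genes at 2, 6, 10, 48 and 72 h (horizontal axis, not to scale). Symbols are single arrays, the line is the limma estimate and bars are 1 SE; NOTCH2 has its own vertical range and reaches 2.75 at 48 h, while DLL1 and DLL4 stay near 0.

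Among the receptors, NOTCH2 rose steeply and the others moved little. NOTCH2 encodes a receptor used in the blood system by marginal zone B cells among others. It was at −0.0070, 0.17 and −0.049 at 2 h, with a confidence interval of the estimate from −0.39 to 0.37. The 6 h ratios were 1.54, 1.59 and 0.87, followed by 2.71, 1.56 and 1.65 at 10 h. All 3 arrays of both times lay above all 3 of 2 h. The 48 h ratios were 2.79, 2.86 and 2.75, which all lay above every array taken up to 10 h, and those of 72 h were 3.02, 2.38 and 2.56. The estimates were 1.28 ± 0.17 (adjusted p = 0.000152) at 6 h, 1.92 ± 0.17 (5.91e-06) at 10 h, 2.75 ± 0.17 (1.18e-07) at 48 h and 2.60 ± 0.17 (2.05e-07) at 72 h. As folds these were 2.43, 3.79, 6.71 and 6.07. In order of ratio NOTCH2 stood at rank 66 of all genes at 6 h, 24 at 10 h, 27 at 48 h and 24 at 72 h. Every one of these calls was kept under the 27 alternatives tried. NOTCH2 was measured by 1 probe, and the human genome holds NOTCH2NL genes that copy part of NOTCH2, so RNA of these may bind it.

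NOTCH1, the receptor that drives T cell commitment and is mutated in T cell leukaemia, rose slightly and early. Its ratios were 0.24, 0.18 and 0.051 at 2 h and 0.31, 0.31 and 0.21 at 6 h, where the estimate was 0.24 ± 0.043 (adjusted p = 0.00102), a fold of 1.18. This small rise at 6 h was called under all 27 alternatives. At 10 h the ratios were 0.28, 0.16 and 0.046 (estimate 0.13 ± 0.043, adjusted p = 0.0392). That call was not stable. It ended without replicate 1 or 2 at all times (adjusted p = 0.257 and 0.072), and without the array of 10 h replicate 1 or 3 (0.202 and 0.237). Leaving out any single array of 2 h ended it too (0.0527, 0.051 and 0.0563). Without replicate 3 the estimate was 0.22. On the later days replicates 1 and 2 stayed higher and replicate 3 did not. The 48 h ratios were 0.17, 0.16 and −0.17, those of 72 h were 0.21, 0.16 and −0.096, and neither time passed (adjusted p = 0.778 and 0.363). Without replicate 3 both passed, at 0.17 (adjusted p = 0.0403) and 0.18 (0.0335). Fits without replicate 3 hold no dye term, since the dyes were exchanged in that replicate alone. In the fit of all arrays the dye term of NOTCH1 was 0.11, and an effect of dye cannot be told apart from one of the third thawing. This holds for the other genes too, with larger dye terms for NOTCH2 (0.15), HES1 (0.14) and HEY1 (0.13). NOTCH3 had −0.096, and the remaining genes lay between −0.039 and 0.030.

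NOTCH1 was read by 10 spots annotated to 1 transcript, and whether these share a sequence is not given in the sources used here, so their spread may hold differences between probes as well as between spots. Their SD within an array had a median of 0.12 in replicate 1, 0.066 in replicate 2 and 0.21 in replicate 3. At 6 h all 10 spots were above 0 on each of the 3 arrays. In replicate 3 at 48 h the 10 spots ran from −0.93 to 0.071, and 3 were above 0. The low mean of NOTCH1 on that array therefore went with a wide spread among its own spots.

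NOTCH3, a receptor best known from vascular smooth muscle, rose on the later days by the mean of its 2 probes, of which 1 carried the rise. The gene means were 0.088, 0.28 and 0.50 at 48 h, then 0.14, 0.40 and 0.63 at 72 h, with replicate 3 the highest and replicate 1 the lowest at both times. The estimates were 0.32 ± 0.062 (adjusted p = 0.00115) and 0.42 ± 0.062 (0.000166), and without replicate 3 the first was 0.19 and no longer passed (adjusted p = 0.0944). At 2, 6 and 10 h the gene mean did not pass, with estimates of 0.031, −0.0073 and 0.14. Its 2 probes went apart. The probe annotated to an expressed sequence tag had 0.41, 0.52 and 0.84 at 48 h, then 0.58, 0.80 and 1.03 at 72 h (estimates 0.61 and 0.83, adjusted p over all probes 2.78e-05 and 2.19e-06), and taken alone it also passed at 10 h (0.23, 0.0353). The probe on the reference transcript had −0.23, 0.047 and 0.17 at 48 h, then −0.30, −0.0059 and 0.23 at 72 h (estimates 0.033 and 0.013, adjusted p = 0.801 and 0.933). The 2 probes did not overlap at either time, and the strand and exon that the tag covers are not given in the sources used here. The rise of NOTCH3 thus rests on the tag probe.

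NOTCH4, a receptor of endothelial cells, was called at the fewest times of the receptors. It passed at 72 h alone, where the gene means were 0.10, 0.22 and 0.25 (estimate 0.18 ± 0.059, adjusted p = 0.0292). This call was lost without replicate 2 or 3 at all times (adjusted p = 0.061 and 0.165) and without 72 h replicate 2 or 3 (0.0889 and 0.352). Both probes are annotated to the same transcript. The second carried the rise, with 0.22, 0.49 and 0.46 at 72 h (estimate 0.38, adjusted p over all probes 0.00131), and the first had −0.032, −0.046 and 0.048 (−0.019, adjusted p = 0.915). At the earlier times the estimates of NOTCH4 lay between 0.029 and 0.10 and none passed.

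**Figure D2:**
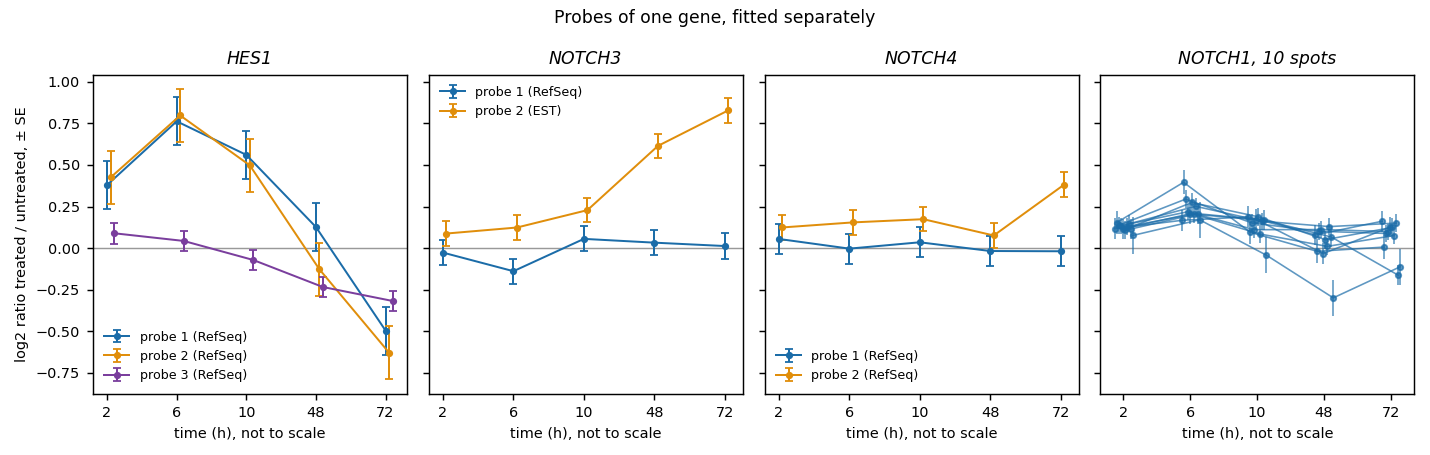
Limma estimates with SE (vertical axis, log2 ratio) for each probe of HES1, NOTCH3, NOTCH4 and the 10 NOTCH1 spots against time (horizontal axis, not to scale); EST marks a probe annotated to an expressed sequence tag. The third HES1 probe shows no early rise, and 1 probe each of NOTCH3 and NOTCH4 stays near 0 at 72 h.

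Of the ligands, JAG1 rose, JAG2 fell late, and DLL1 and DLL4 did not pass at any time. JAG1 encodes a Jagged ligand that is made by bone marrow stroma among other tissues. Its ratios were 0.057, 0.13 and 0.081 at 2 h, followed by 0.45, 0.42 and 0.15 at 6 h, then 0.54, 0.095 and 0.32 at 10 h. They lay closest together on the 48 h arrays, at 0.54, 0.50 and 0.58, and ended at 0.58, 0.40 and 0.42 on those of 72 h. Every array was above 0, and all 3 arrays of 48 h and of 72 h lay above all 3 of 2 h. The estimates were 0.33 ± 0.074 (adjusted p = 0.00479) at 6 h, 0.31 ± 0.074 (0.00661) at 10 h, 0.53 ± 0.074 (9.99e-05) at 48 h and 0.46 ± 0.074 (0.000325) at 72 h, the largest fold being 1.44. The calls at 6, 48 and 72 h were kept under all 27 alternatives. The call at 10 h ended without replicate 1 at all times (adjusted p = 0.116) and without 10 h replicate 1 or 3 (0.079 and 0.081).

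JAG2, the other Jagged ligand, went from slightly higher to lower. Its ratios were 0.32, 0.047 and 0.25 at 2 h, followed by 0.11, −0.14 and 0.11 at 6 h, then −0.22, −0.13 and 0.11 at 10 h. The 48 h ratios were −0.41, −0.27 and −0.28, and those of 72 h −0.33, −0.12 and −0.37. The 3 arrays of 2 h were all above 0, and the 6 arrays of 48 and 72 h were all below it. JAG2 did not pass at 2, 6 or 10 h (estimate 0.22 ± 0.073 and adjusted p = 0.118 at 2 h). It fell by 0.31 ± 0.073 at 48 h (adjusted p = 0.00468) and by 0.26 ± 0.073 at 72 h (0.0143), to 0.81 and 0.84 of the untreated level. Without replicate 1 at all times neither passed (adjusted p = 0.0524 and 0.0823). At 72 h the call also ended without replicate 3 at all times (0.116) and without 72 h replicate 1 or 3 (0.0622 and 0.259).

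The Delta-like ligands showed no change that passed. DLL1 arrays ran from −0.074 to 0.18 over the 15 arrays, and the widest confidence limits of an estimate were −0.11 and 0.16, so that a change beyond these limits was not seen at any time. DLL4, which encodes the ligand that thymic epithelium shows to T cell progenitors, had 0.12, 0.081 and −0.011 at 2 h, against −0.18, −0.057 and −0.021 at 72 h. All 6 of its arrays at 48 and 72 h were below 0, with estimates of −0.068 ± 0.041 (adjusted p = 0.232) and −0.083 ± 0.041 (0.149). DLL3, a divergent member that acts on receptors of its own cell, was no member of the chosen set. It rose at 10 h (0.23 ± 0.044, adjusted p = 0.0017) and 48 h (0.17, 0.00896). Its 48 h call ended without replicate 2 at all times or without 48 h replicate 2, with a highest adjusted p of 0.126.

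Both target genes were higher early, and they parted later. HEY1, a repressor that acts in heart and vessel development, was the only one of the 10 genes that passed at 2 h. Its ratios were 1.24, 1.12 and 1.00 at 2 h, followed by 1.38, 1.14 and 0.86 at 6 h, then 1.29, 0.88 and 0.96 at 10 h. The 48 h ratios were 0.90, 0.82 and 0.72, and those of 72 h 1.14, 0.66 and 0.41. All 15 arrays were above 0, and the 3 arrays of 2 h lay above the 3 of 48 h. The estimates were 1.08 ± 0.098 (adjusted p = 5.12e-05) at 2 h, 1.08 ± 0.098 (8.24e-06) at 6 h, 1.00 ± 0.098 (1.04e-05) at 10 h, 0.77 ± 0.098 (4.42e-05) at 48 h and 0.69 ± 0.098 (0.000113) at 72 h. This is a fold of 2.11 at 2 h and of 1.62 at 72 h. At 2 h, where 4.82% of all genes rose, HEY1 stood at rank 11 of all genes by ratio. At 72 h it stood at rank 867. All 5 calls were kept under the 27 alternatives, and with the arrays scaled to one spread the 2 h estimate was 1.76. HEY1 was read by 1 probe.

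HES1, the repressor that mediates much of the Notch response and oscillates with its own protein in many cells, went from higher to lower. The gene means were 0.49, 0.20 and 0.34 at 2 h, then 0.68, 0.71 and 0.36 at 6 h. The 10 h means were 0.62, 0.31 and 0.20, and those of 48 h 0.30, −0.027 and −0.37. The last arrays, of 72 h, gave −0.052, −0.63 and −0.62. All 9 arrays up to 10 h were above 0, and all 3 at 72 h below it. The estimate at 2 h was 0.30 ± 0.11 and did not pass (adjusted p = 0.152), while it passed with the thawing as a block (0.0477) and without replicate 2 at all times (0.0405). HES1 rose at 6 h (0.53 ± 0.11, adjusted p = 0.00241), a fold of 1.45, and this was kept under all 27 alternatives. It rose at 10 h (0.33 ± 0.11, adjusted p = 0.0365), a call that ended without replicate 1 or 3 at all times (0.0934 and 0.0502) or without 10 h replicate 1 or 3 (0.21 and 0.176). It did not pass at 48 h, where the 3 arrays disagreed. At 72 h it fell by 0.48 ± 0.11 (adjusted p = 0.00365), to 0.72 of the untreated level, and without replicate 3 the adjusted p was 0.134.

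The 3 HES1 probes, all annotated to 1 transcript, did not move alike. Probes 1 and 2 showed the course of the gene, with 0.95, 1.07 and 0.51 and with 1.06, 0.90 and 0.56 at 6 h. Their 6 h estimates were 0.76 and 0.80, and those of 72 h −0.50 and −0.63, each with an adjusted p over all probes under 0.05 (0.00169, 0.00241, 0.0175 and 0.00787). Probe 3 had 0.019, 0.15 and 0.00085 at 6 h (estimate 0.043, adjusted p = 0.703). It was lower on all 6 arrays of the later days, with −0.14, −0.33 and −0.19 at 48 h, then −0.17, −0.41 and −0.33 at 72 h (estimates −0.23 and −0.32, adjusted p = 0.00969 and 0.00141). All 3 probes were thus lower at 72 h, and the early rise was seen by probes 1 and 2. Where the probes lie on the transcript was not given in the sources used here.

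The later days were set against the first hours by taking the mean ratio of the times up to 10 h from that of 48 and 72 h. Of all genes 25.9% passed this test (14.9% higher late, 11% lower late), and 7 of the 10 Notch genes did. NOTCH2 (1.61 ± 0.16, adjusted p = 1.14e-05), NOTCH3 (0.32 ± 0.056, 0.00116) and JAG1 (0.26 ± 0.067, 0.0134) were higher late. HES1 (−0.67 ± 0.098, 0.000291), JAG2 (−0.35 ± 0.066, 0.00189), HEY1 (−0.32 ± 0.088, 0.0173) and NOTCH1 (−0.13 ± 0.039, 0.03) were lower late. HEY1 was thus lower relative to the first hours while still above the untreated cells. NOTCH4 (0.015, adjusted p = 0.878), DLL1 (0.0063, 0.945) and DLL4 (−0.096, 0.0817) did not pass. Without replicate 3, 1998 of all genes passed against 4755, and of the 10 genes only the calls of NOTCH2 and HES1 were kept. The adjusted p was then 0.0619 for NOTCH3, 0.158 for JAG1, 0.0681 for JAG2, 0.166 for HEY1 and 0.421 for NOTCH1. Without replicate 1 or 2, NOTCH1 also failed (0.0888 and 0.074). HEY1 was also lost without 72 h replicate 3 (0.0601). NOTCH1 was kept under 14 of 26 alternatives, and the arrays whose single removal ended its call were 2 h replicates 1 and 3, 6 h replicate 3, 10 h replicates 1 and 3, 48 h replicate 3 and 72 h replicate 3. A moderated F test of any difference among the 5 times passed for 23.3% of all genes and for 5 of the 10. These were NOTCH2 (adjusted p = 3.17e-05), HES1 (0.00223), NOTCH3 (0.00972), JAG2 (0.0101) and JAG1 (0.0403). The F test called 3 of the 10 without replicate 2 and 1 without replicate 3. Of all genes it called 2389 and 920 in these fits, against 4277.

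**Figure D3:**
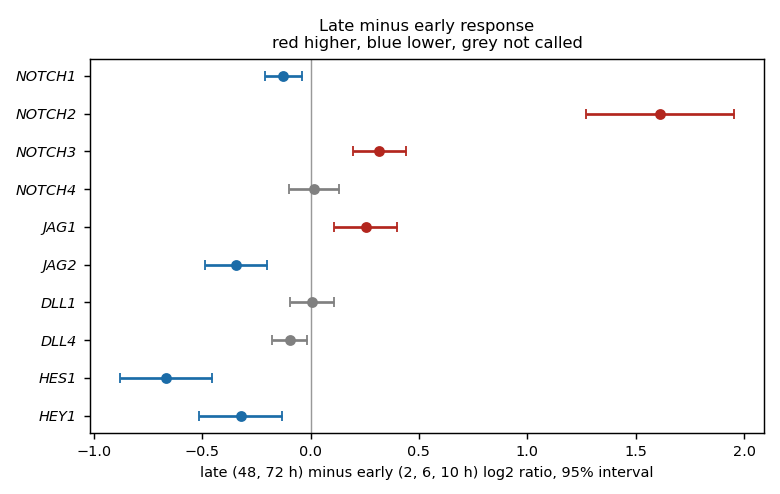
Mean log2 ratio at 48 and 72 h minus that at 2, 6 and 10 h (horizontal axis) for each of the 10 genes, with its 95% interval from limma. NOTCH2 lies farthest to the right at 1.61 and HES1 farthest to the left at −0.67; grey marks genes that did not pass.

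For the genes that the F test called, the genes with the most similar ratios over the 15 arrays were looked up across the whole table. The arrays share thawings and dye orientation, so the correlations are descriptions. NOTCH2 was most like DSP (Pearson r = 0.989), DENND2C (0.984) and AIF1L (0.984). The first of these reached a ratio of 0.61 at 72 h and the third 3.36. JAG1 was most like CDKN1A, the gene of the p21 inhibitor of the cell cycle (0.951), GLI1 (0.948) and DENND2C (0.94). HES1 was most like MOK and INTU (0.961 each) and MILR1 (0.957), all 3 lower at 72 h. NOTCH3 was most like CGB3 (0.952), ABCB6 (0.949) and PKD2L1 (0.943), and JAG2 like TACO1 (0.942), LRFN4 (0.937) and WDR4 (0.928).

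The rest of the pathway was followed with 76 further genes, also chosen with earlier results of these data known, of which 69 were measured. In order of time, from 2 to 72 h, 5, 23, 16, 23 and 22 of these rose, while 1, 6, 6, 8 and 8 fell. These are 8.7%, 42%, 31.9%, 44.9% and 43.5% of the 69, beside the shares over all genes given above. Their median ratio, over genes that went both ways, lay between 0.028 and 0.076. The number that rose depended on single arrays. At 2 h it was 2 or fewer when any one array of that time was left out, or replicate 1 or 3 at all times, and 3 without replicate 2. At 6 h it was 12 without the array of replicate 2 and 15 without that of replicate 3. At 10 h it was 10 without replicate 1, and at 72 h 14 without replicate 3. Over all genes, counting both directions, the numbers depended on the arrays as well. At 2 h 526, 689 and 398 passed without replicate 1, 2 or 3 of that time, against 1165. At 72 h 4309 passed without replicate 3, against 6559. With arrays or replicates left out, the lowest number was 3655 at 6 h against 5256, and 3389 at 10 h against 5438.

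Among the HES and HEY genes, HEYL had ratios close in size to those of NOTCH2. HEYL, a relative of HEY1, was at 0.43, 0.47 and 0.22 at 2 h, then at 1.52, 1.39 and 0.96 at 6 h. It reached 2.37, 2.41 and 2.32 at 48 h, then 2.50, 2.08 and 1.40 at 72 h. All arrays from 6 h on lay above those of 2 h. The estimates were 0.29 (adjusted p = 0.273) at 2 h, 1.20 ± 0.13 (2.54e-05) at 6 h, 1.46 ± 0.13 (4.61e-06) at 10 h, 2.28 ± 0.13 (4.43e-08) at 48 h and 1.91 ± 0.13 (2.09e-07) at 72 h, a fold of 4.86 at its highest. HES4 rose at 6 h (0.40, adjusted p = 0.00402) and 10 h (0.49, 0.00103) and not later, and the first call ended without replicate 1 (0.0949). HEY2, named here after its values were seen, rose at 2 h (0.25, adjusted p = 0.0154), 6 h (0.34, 0.000509) and 10 h (0.24, 0.00533). Its 2 h call ended without any single replicate of 2 h, with a highest adjusted p of 0.159, and its 10 h call without 10 h replicate 1 or 3 (highest 0.098). Of the 9 family members measured, HES1 and HEY1 included, 2, 5, 5, 4 and 3 rose at the 5 times and 1 fell, HES1 at 72 h. Beside these counts, 4.82%, 19%, 18.1%, 23.3% and 22.1% of all genes rose at the 5 times, and 13.6% fell at 72 h.

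Genes for cutting the receptor rose and fell within 1 complex. Gamma-secretase needs a presenilin, nicastrin, PSENEN and one of the APH1 proteins. APH1B rose from 6 h (0.42 ± 0.048, adjusted p = 4.22e-05) to 48 h (0.79 ± 0.048, 8.96e-08), with 0.74, 0.85 and 0.82 at 48 h. Its alternative APH1A was at −0.48, −0.28 and −0.81 at 48 h, so that the arrays of the 2 genes did not overlap, and fell by 0.55 ± 0.11 (adjusted p = 0.00109). The presenilin gene PSEN2 rose at 48 h (0.41 ± 0.054, 6.19e-05) and 72 h (0.50 ± 0.054, 1.29e-05), and PSENEN at 48 h (0.48 ± 0.10, 0.00203). ADAM10, the metalloprotease of the first cut, chosen here after its values were seen, rose at 48 h (0.44 ± 0.079, 0.000677). Each of these calls was kept under all 27 alternatives. Of the 7 cleavage genes measured, 4 rose and 1 fell at 48 h, where 23.3% of all genes rose and 14.6% fell. The counts were the same at 72 h, where 22.1% of all genes rose and 13.6% fell. The fall of APH1A at 72 h (−0.30, adjusted p = 0.0438) was kept under 12 of 27 alternatives, with a highest adjusted p of 0.491, while ADAM17 and NCSTN did not pass at any time.

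Of the genes that act on ligands and on receptor sugars, NEURL1, a ubiquitin ligase of ligands, rose most. It was at 0.54, 0.43 and 0.56 at 10 h, then 0.54, 0.61 and 0.75 at 48 h (0.66 ± 0.059, adjusted p = 2.22e-06). LFNG, the Lunatic fringe enzyme that changes which ligands a receptor answers, rose at 72 h (0.29, 0.47 and 0.48 on the arrays, 0.43 ± 0.060, adjusted p = 0.000101). POFUT1, which adds O-fucose to Notch, fell by 0.25 ± 0.040 at 48 h (0.000242). DLK1, a ligand-like protein without the usual receptor-binding domain, rose at 48 h (0.50 ± 0.10, 0.00143), as did NEURL1B at 72 h (0.34 ± 0.051, 0.000183). These 5 calls were kept under all 27 alternatives. MIB2, another ligase of ligands, rose at 6 h (0.46 ± 0.12, 0.0108), a call lost without 6 h replicate 2 (0.091). Of 4 ligases of ligands 2 rose at 6, 48 and 72 h and 1 at 10 h. Of all genes 19% rose at 6 h, 18.1% at 10 h, 23.3% at 48 h and 22.1% at 72 h. Besides MIB2 the ligase called at 6 h was NEURL1 (0.21, adjusted p = 0.0159), a call kept under 21 of 27 alternatives. Of 7 genes of receptor maturation 3 rose and 2 fell at 72 h, where 22.1% of all genes rose and 13.6% fell.

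In the nucleus, the DNA-binding subunit RBPJ did not pass at any time, and its estimates lay between −0.054 and 0.047. Of the 9 genes of its activating complex 2 fell at each time from 6 h on, and 1 rose at 48 h and at 72 h. Of all genes 9.66%, 11.6%, 14.6% and 13.6% fell at the times from 6 h on, and 23.3% and 22.1% rose at 48 and 72 h. The acetyltransferase gene KAT2A fell, with −1.21, −1.04 and −0.66 at 10 h (−0.87 ± 0.082, adjusted p = 7.87e-06) and −1.03, −1.19 and −0.39 at 72 h (−0.77 ± 0.082, 1.02e-05). CREBBP, another acetyltransferase, was lower at 6 h (−0.44 ± 0.099, 0.00502). On the side of the corepressors, TLE2, a Groucho-type partner of HES proteins, was at 0.68, 0.77 and 0.61 at 6 h and 1.49, 1.71 and 1.26 at 48 h. All 3 arrays of 48 h lay above all 3 of 6 h, and the estimate at 48 h was 1.47 ± 0.12 (adjusted p = 1.26e-06). TLE1 rose at 48 h (0.65 ± 0.097, 0.000176). Of 11 corepressor genes measured, 3, 6, 3, 6 and 5 rose at the 5 times and at most 2 fell at any one of them. The shares of all genes that rose were 4.82%, 19%, 18.1%, 23.3% and 22.1%, and 1.53% fell at 2 h. ITCH, a ubiquitin ligase that marks Notch for breakdown, fell by 0.32 ± 0.042 at 48 h (5.92e-05) and by 0.39 ± 0.042 at 72 h (1.08e-05), and NUMB, an inhibitor of Notch, rose at 6 h (0.40 ± 0.079, 0.00201). These calls of single genes held under all 27 alternatives. HDAC1, which encodes a histone deacetylase found in such corepressor complexes, rose at 72 h (0.41 ± 0.069, adjusted p = 0.000423), with a highest adjusted p of 0.0724 over the alternatives. Other corepressor genes fell. CTBP1, chosen here after its values were seen, was lower at 6, 10 and 48 h (−0.25, −0.22 and −0.22, adjusted p = 0.00379, 0.00713 and 0.00614). Its calls were not followed singly under the alternatives. CTBP2 fell at 6 h (−0.32, 0.00722) and rose at 72 h (0.44, 0.000576), with highest adjusted p of 0.314 and 0.0534 over the alternatives. The 6 h call ended with the median of its 3 probes and without 6 h replicate 3, and the smallest fall over the alternatives was −0.13.

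Of 11 other measured genes reported as Notch targets in one tissue or another, 5 rose at 6 h, where 19% of all genes did, and 3 at 10, 48 and 72 h, where 18.1%, 23.3% and 22.1% did. At the last 3 times the count was thus near the share over all genes. CDKN1A reached 1.64 ± 0.11 at 72 h (adjusted p = 2.27e-07), CCND1, which encodes cyclin D1, 0.70 ± 0.058 (1.1e-06), and CCND3 0.77 ± 0.074 (4.77e-06). MYC, a target in T cell leukaemia, was lower at 2 h (−0.92 ± 0.11, 0.000315) and 72 h (−0.51 ± 0.11, 0.00341). The T cell targets PTCRA and IL7R did not pass at any time.

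**Figure D4:**
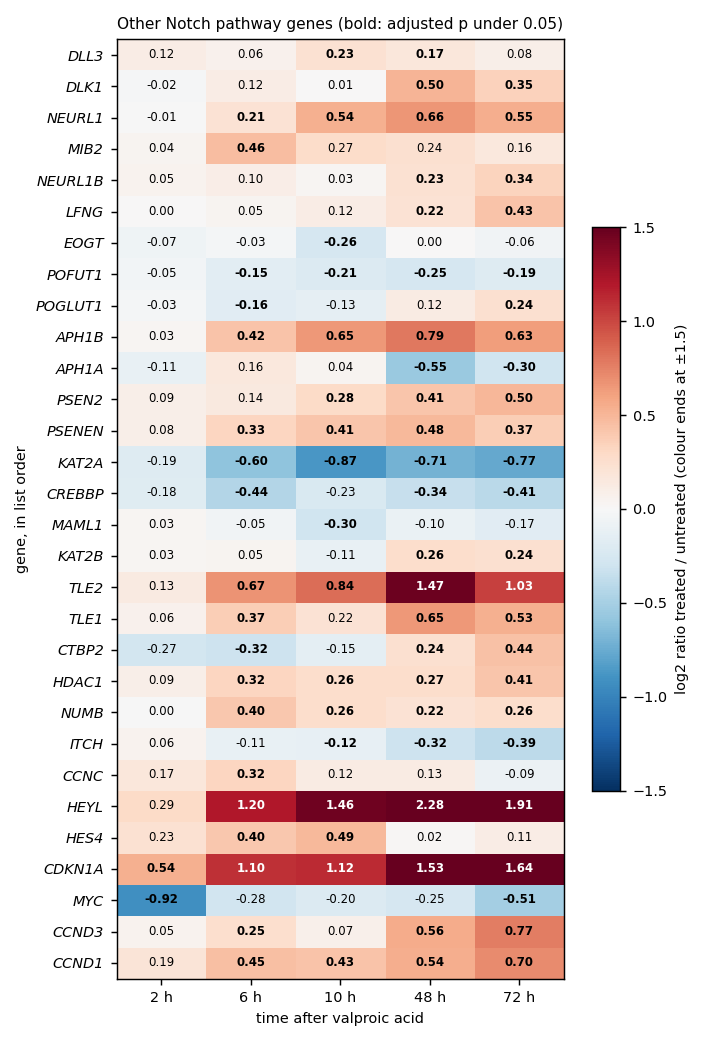
Log2 ratio of treated over untreated RNA at each time (columns) for the pathway genes named by rule (rows, in list order), with bold numbers where the adjusted p was under 0.05. HEYL and TLE2 carry the darkest red besides CDKN1A, and KAT2A is lower from 6 h on.

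Lineage markers moved beside these genes. Of 7 measured erythroid markers, 1 fell at 2 h, 3 at 6, 10 and 48 h and 2 at 72 h. Of all genes 1.53% fell at 2 h, 9.66% at 6 h, 11.6% at 10 h, 14.6% at 48 h and 13.6% at 72 h. Among the erythroid markers 1 rose at 48 h and 1 at 72 h, where 23.3% and 22.1% of all genes did. The estimates of these markers at 48 h ran from −0.84 for KLF1, an erythroid transcription factor, to 0.22. At 72 h they ran from −0.90 for HBZ to 0.62, the highest being TFRC, the transferrin receptor gene, which rose (adjusted p = 0.000404). HBZ was at −0.12, −0.47 and −1.92 at 72 h. Its call (adjusted p = 0.0198) ended without replicate 3 at all times or without 72 h replicate 3, with a highest adjusted p of 0.456 over the alternatives. Of 7 megakaryocytic markers 2 rose at 48 h and 3 at 72 h, where 23.3% and 22.1% of all genes did, led by the platelet glycoprotein gene GP9 at 48 h (0.51 ± 0.073, adjusted p = 0.00012). ITGA2B was at 0.054, 0.11 and 0.51 at 48 h (0.25, adjusted p = 0.00488). Its call ended without replicate 3 at all times or without 48 h replicate 3, with a highest adjusted p of 0.319 over the alternatives. The call of ITGB3 at 72 h (0.095, adjusted p = 0.0457) was kept under 4 of 27 alternatives. The part of the lineage markers in the Notch results was not tested.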

How the data were processed

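The authors deposited 1 log2 ratio for each of 45220 probes and 15 arrays, treated over untreated; the submitters' processing notes name limma without a version, and base 2 is an assumption. Background correction and normalization are not given in the sources used here. No signal intensities were used, so no dim probe was removed; precision is limited by the number of arrays. The direction follows the labels, and the sign of replicate 3 was kept as deposited, since its ratios ran the same way across genes as those of replicates 1 and 2. Across all probes this did not hold at 2 h (r = −0.0895).

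Probes took gene symbols from the platform annotation: 31332 had 1 symbol, 93 several and 13795 none, and 31291 were matched by gene identifier to the RefSeq table of GRCh38.p14. Genes were the mean of their probes. Each of 18334 genes was given 5 time means and a dye term (limma 3.58.1 under R 4.3.3, lmFit and eBayes). Residual degrees of freedom were 9 and those of the prior 3.47. The dye term also takes up what is peculiar to the third thawing, since dyes were exchanged in replicate 3 alone. Errors are SEs and intervals 95%. The median SE over all genes was 0.0602. Probe values come from the same fit over all probes with 1 gene. The fit was also run on simulated data, with noise drawn independently for each array and changes put in at 48 h only. Such data hold no thawing effect beyond the dye term, and the outcome is not used here.

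Replicate numbers pair arrays across times, because the labels say that each replicate is a different thawing; residuals of same-numbered arrays correlated at 0.183, 0.153 and 0.525 without the dye term and −0.0573, −0.0526 and −0.243 with it. Named pathway genes were up to 4 per list with the largest called ratio of 1 sign on all 3 arrays; like genes were the 3 with the highest r. Members and lists were chosen with earlier results of these data known. Alternatives were other scaling, centring, weights, dye and thawing terms, priors, probe summaries, single times, and leaving out arrays.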

Additional observations from a re-analysis of the deposited data

Results flagged for a closer look

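The response differed between the later days and the first hours for 7 of the 10 genes, by limma's test of the mean at 48 and 72 h minus the mean at 2, 6 and 10 h, where 25.9% of all genes passed. The log2 differences were 1.61 for NOTCH2, 0.32 for NOTCH3 and 0.26 for JAG1, all higher late. They were −0.13 for NOTCH1, −0.35 for JAG2, −0.67 for HES1 and −0.32 for HEY1, all lower late. Without replicate 3 only 2 of the 10 genes passed this test, NOTCH2 and HES1, where 1998 of all genes passed against 4755. The F test of any difference among the times did not pass for HEY1 (adjusted p = 0.116) or NOTCH1 (0.0913). The NOTCH1 call was kept under 14 of 26 alternatives. The NOTCH3 difference was 0.059 by the probe on the reference transcript (limma adjusted p over all probes 0.607). By the sign of the arrays HES1 and JAG2 also changed side, with all 3 above 0 at 2 h and all 3 below 0 at 72 h. Neither passed at 2 h (limma adjusted p = 0.152 and 0.118). HES1 rose at 6 and 10 h, though not by its probe 3, and JAG2 rose at no time. Without replicate 3 neither fall at 72 h passed (limma adjusted p = 0.134 for HES1 and 0.116 for JAG2).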

How the results depend on the processing

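Of 30 calls of the 10 genes at single times and late against early, 16 were kept under every alternative and 14 were lost under 1 or more, and none changed sign under an alternative planned at the outset. Probes taken singly, an alternative chosen after seeing the data, gave −0.071 for HES1 at 10 h by probe 3 and −0.019 for NOTCH4 at 72 h by probe 1, against 0.33 and 0.18 for the genes. With arrays scaled to one spread or weighted by quality, 4 of the 10 genes passed at 2 h (3875 and 3253 of all genes, against 1165), and 2 with the thawing as a block beside the dye term or with each time fitted alone; the block changed no other call of these genes. At 10 h 3 of the 10 passed with scaled arrays or no dye term, and 2 of the 10 (2712 of all genes, against 5438) with each time fitted alone. At 72 h fitting each time alone called 3 of the 10, and 2999 of all genes against 6559. Without the dye term the F test called 3 of the 10, and 2838 of all genes against 4277. With arrays or replicates left out, the 10 genes gave 1 to 2 calls at 2 h, 5 at 6 h, 2 to 5 at 10 h, 4 to 5 at 48 h, 5 to 7 at 72 h, 2 to 7 late against early and 1 to 6 by the F test. All genes gave 398 to 1453 at 2 h, 3655 to 5711 at 6 h, 3389 to 5874 at 10 h, 5111 to 7283 at 48 h, 4213 to 6596 at 72 h, 1998 to 4913 late against early and 920 to 5005 by the F test. Leaving out replicate 3 also removes the dye term. Of 69 further pathway genes, 13 rose at 2 h with scaled and 12 with weighted arrays against 5, and with each time fitted alone 12 rose at 6 h against 23, 9 at 10 h against 16 and 14 at 72 h against 22. The counts of all genes under these fits are given above for 2, 10 and 72 h, and not for 6 h. The cause of these shifts was not tested. Signal over background was not used, so what dim probes limit is unknown.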
